A study of Oryza sativa with 6 samples.

Results

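The genes described here are the listed genes whose Gene Ontology (GO) process is proteolysis or contains the word ubiquitin, taken from the table that compared leaves of the rice mutant *Dwarf and aberrant panicle 1* (*Dap1*) with the wild type (WT). The table held 925 genes, of which 41 carried such a term. Of these, 10 were set aside because they were left out by name (*OsVPE2* and *OsRZFP34*), belonged to the pathway of protein processing in the endoplasmic reticulum, or had 3 counts or fewer in every library of a group. The other 31 genes were 24 with the term proteolysis and 7 with a ubiquitin term, and no gene had both. Each of the 925 genes had been listed because the authors called it different between the same 6 libraries. The differences between *Dap1* and WT are therefore given as a description, with a standard error (SE) and with no test.

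Proteolysis removes and trims proteins, and ubiquitination marks proteins for removal or for other fates. Peptidases are grouped by how they cut: serine, cysteine and aspartic peptidases attack the peptide bond through those residues or the water they hold, and metallopeptidases use a bound metal ion, usually zinc. Ubiquitin is a small protein that is joined to a target by a chain of activating, conjugating and ligating enzymes, in which the ligase (E3) chooses the target. In leaves these systems are known for recycling nitrogen during senescence, for clearing damaged chloroplast proteins and for turning over signalling proteins.

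*Dap1* carries a T-DNA insertion upstream of *OsWUS* in the *japonica* variety Zhonghua11 (ZH11), and ZH11 itself was the WT. The mutant is 1 insertion line in which homozygous seedlings were not recovered, and the labels give its genotype only as Dap, so the leaves are those of plants taken to be heterozygous. Plants of both genotypes were grown in the field, and fresh leaves were collected at the booting stage, with 3 replicate libraries per genotype. *Dap1* headed later than WT, so the day of sampling and the genotype cannot be told apart. *OsWUS* (*Os04g0663600*) had 0 counts in each WT library and 77, 100 and 105 counts in the *Dap1* libraries. The 31 genes together had 6665, 4977 and 6074 counts (WT) against 11569, 12297 and 12441 (*Dap1*). Relative library sizes, taken from the ratio of count to FPKM (the count scaled to gene length and library depth), lay between 0.860 and 1.10. No listed gene was described as ribulose bisphosphate carboxylase or as a chlorophyll a/b-binding protein, 3 were described as photosystem proteins, and a leaf marker that is not listed says nothing of its level. In whole leaves, fewer cells of a type and less RNA per cell cannot be told apart.

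In *Dap1* leaves 16 of the 31 genes had a log2 fold change over 1 and 15 had one under -1. Over all 925 listed genes the shares were 56.9% over 1 and 41.7% under -1, and nothing is read from the likeness of these shares because the genes had been selected on the same contrast. The median log2 fold change was 1.00 over the 31 genes and 1.15 over all listed genes. With 16 higher and 15 lower genes, the median of the 31 is the smallest rise (*OsSub28*) and not a typical change. The median was 1.54 over the 16 higher genes, against 1.84 over all listed higher genes. It was -1.48 over the 15 lower genes, against -1.38 over all listed lower genes. WT and *Dap1* libraries were fully separated in 31 of the 31 genes, as they were in 99.0% of all listed genes. With each library left out in turn, 12 to 16 genes stayed over 1 and 13 to 15 under -1, and no gene changed sign. Where the groups are fully separated, leaving a library out cannot change the sign. Scaling factors computed over the listed genes lowered every gene by similar amounts (median shifts of -0.45 and -0.85). With them 8 (TMM) and 4 (DESeq2 size factors) genes were over 1, and the sign of all 31 genes stayed the same.

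**Figure D1:**
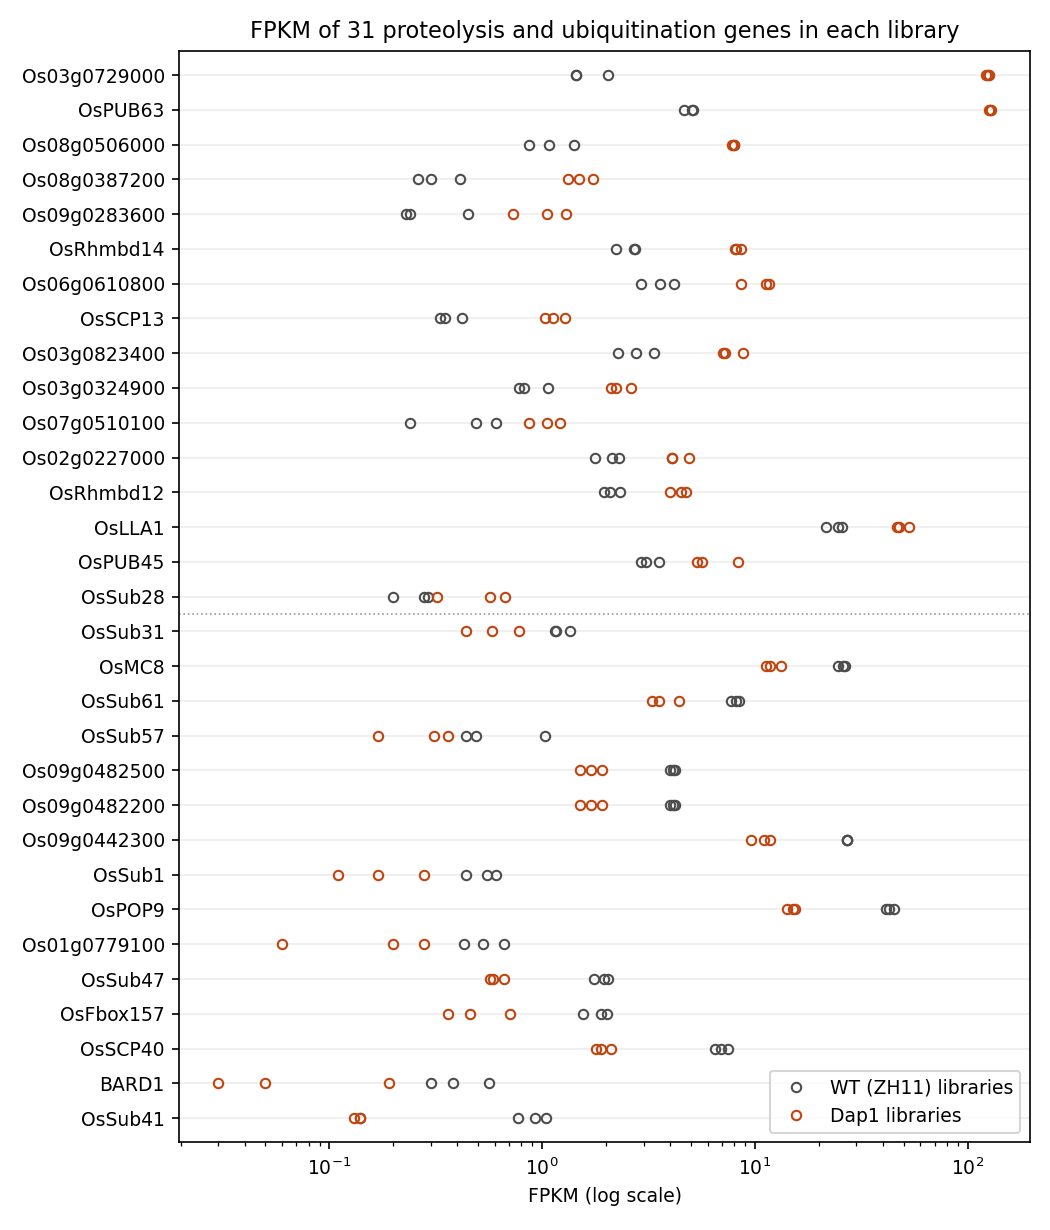
FPKM (log axis) of each of the 31 genes in each of the 3 WT libraries (grey) and the 3 *Dap1* libraries (red), with genes ordered by log2 fold change and a dotted line between the 16 higher and the 15 lower genes. The WT and *Dap1* points do not overlap in any row, and they lie closest in *OsSub28* and *OsSub57*.

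The summed FPKM of the 31 genes was 178 ± 4.86 (SD, n = 3) in WT and 407 ± 8.33 in *Dap1*. A pair of genes, *Os03g0729000* and *OsPUB63*, made up 3.53% to 3.95% of this sum in the WT libraries and 60.9% to 62.6% in the *Dap1* libraries. The other 29 genes summed to 171 ± 4.49 FPKM in WT and 156 ± 6.32 in *Dap1*. In WT the largest single level was that of *OsPOP9*, which held 23.7% to 24.9% of the sum there and 3.52% to 3.87% in *Dap1*. The 15 lower genes summed to 127 ± 1.51 FPKM in WT and 49.6 ± 2.72 in *Dap1*, and the 16 higher genes to 50.5 ± 3.40 and 358 ± 8.27.

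**Figure D2:**
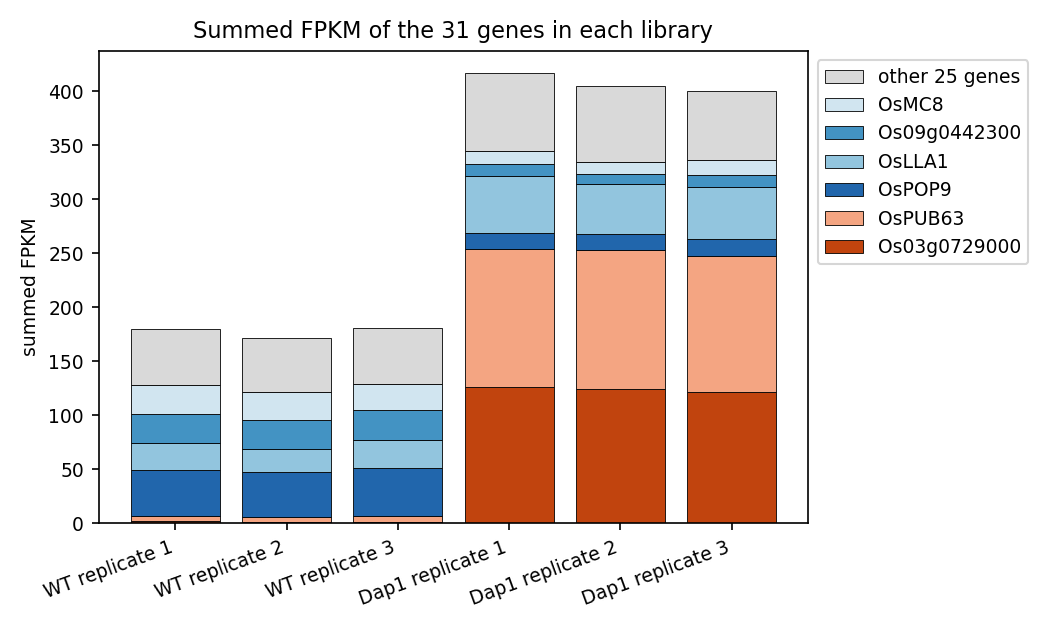
Summed FPKM of the 31 genes in each library, stacked by the 6 genes with the largest shares and the rest (light grey). *Os03g0729000* and *OsPUB63* fill 60.9% to 62.6% of each *Dap1* bar and 3.53% to 3.95% of each WT bar.

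The 27 listed genes annotated to the response to heat differed between the genotypes as well. They too had been listed because the authors called them different on this contrast. Their summed FPKM was 485, 489 and 495 (WT) against 2667, 2665 and 2652 (*Dap1*). Of the 27 genes 26 were higher in *Dap1*, as were 57.5% of all listed genes. None of the 31 genes carries that term, and the choice of genes would have left out any that did. None of the 41 genes with a proteolysis or ubiquitin term was set aside for that reason. The part of the heat-related genes in the values below was not tested.

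The largest difference was in a metallopeptidase gene. *Os03g0729000*, on chromosome 3 by its identifier, is described as similar to a peptidase of the M50 family and annotated to the chloroplast membrane. M50 peptidases are site-2 proteases, which cut proteins inside the membrane. The gene had 84, 46 and 54 counts (WT) against 4433, 4747 and 4762 (*Dap1*). Every *Dap1* library was far above every WT library, and the *Dap1* libraries lay close together, with a coefficient of variation (CV) of the library-size-scaled counts of 1.64%. FPKM was 1.65 ± 0.349 (SD, n = 3) in WT and 124 ± 2.03 in *Dap1*, and the log2 fold change was 6.21 (SE 0.0648), or 74.1-fold. Its nearest listed gene by identifier is *OsFbox172* (*Os03g0727800*), an F-box gene whose WT libraries had 0, 0 and 2 counts and whose *Dap1* libraries had 89, 110 and 94.

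The other metallopeptidase genes were expressed at a few FPKM or less. *Os07g0510100* is described as similar to methionine aminopeptidase, the enzyme that removes the first methionine of new proteins. It had 16, 6 and 18 counts (WT) against 34, 32 and 27 (*Dap1*), a log2 fold change of 1.19 (SE 0.338). WT replicate 2 was the lowest, and without it the value was 0.92. *Os02g0227000*, described as a HAD superfamily hydrolase and annotated to metallopeptidase activity and rRNA processing, had 110, 79 and 77 counts (WT) against 168, 182 and 224 (*Dap1*). Its log2 fold change was 1.08 (SE 0.144), and it was 0.98 without WT replicate 3 and without *Dap1* replicate 3. *Os01g0779100* has the zinc-binding site of M16 peptidases and is annotated to the mitochondrion. It was the only lower gene among these 4, with 23, 22 and 32 counts (WT) against 9, 3 and 14 (*Dap1*). Its log2 fold change of -1.59 (SE 0.413) ranged from -2.07 to -1.17 with a library left out.

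Of the 7 genes annotated to ubiquitination 5 were higher and 2 lower. Over all listed genes 57.5% were higher and 42.5% lower, and the split was not tested. *OsPUB63* (*Os06g0159900*, chromosome 6) is named as a plant U-box gene and described as an Arm repeat protein. U-box proteins are E3 ligases, and Arm repeats bind other proteins. It had 137, 98 and 126 counts (WT) against 2977, 3265 and 3255 (*Dap1*). The scaled counts of replicates differed little, with a CV of 5.14% in WT and 1.28% in *Dap1*. FPKM was 4.92 ± 0.256 (SD, n = 3) and 127 ± 1.63, and the log2 fold change was 4.69 (SE 0.0554), or 25.8-fold. In *Dap1* this was the highest FPKM among the 31 genes, followed by *Os03g0729000*, while both were below *OsPOP9*, *Os09g0442300*, *OsMC8* and *OsLLA1* in WT. *OsPUB45* (*Os02g0540700*), another U-box gene, had 111, 75 and 83 counts (WT) against 152, 243 and 159 (*Dap1*). *Dap1* replicate 2 stood above the other *Dap1* libraries. The log2 fold change of *OsPUB45* was 1.01 (SE 0.166), and it was 0.78 without that library, 0.95 without WT replicate 3 and 0.99 without WT replicate 2.

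The other higher ubiquitination genes had FPKM of 2.31 or less in both groups. *Os08g0387200*, described only as a DUF81 family protein and annotated to a Cul4A-RING ligase complex, had 16, 9 and 9 counts (WT) against 58, 48 and 55 (*Dap1*) (log2 fold change 2.21, SE 0.291). *Os09g0283600* has a C6HC zinc finger, a feature of RING-between-RING ligases. It had 7, 10 and 6 counts (WT) against 26, 35 and 20 (*Dap1*) (log2 fold change 1.76, SE 0.394). *Os03g0324900*, a RING-type gene annotated as a ubiquitin ligase, had 30, 18 and 20 counts (WT) against 54, 55 and 70 (*Dap1*) (log2 fold change 1.36, SE 0.246). RING domains hold the ubiquitin-loaded conjugating enzyme next to the target. The groups did not overlap in these 3 genes, and the CV between the WT libraries was 25.3% in *Os08g0387200* and 39.7% in *Os09g0283600*, where counting error alone gives 29.7% and 36.1%.

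Both lower ubiquitination genes are annotated to ligase complexes. *OsFbox157* (*Os03g0638900*) encodes an F-box protein, the part of an SCF ligase that binds the target. It had 56, 36 and 54 counts (WT) against 18, 10 and 13 (*Dap1*), a log2 fold change of -1.84 (SE 0.293). *BARD1* (*Os05g0486600*) is described only as a hypothetical conserved gene and carries the name of the partner of the BRCA1 ligase, which acts in DNA repair. In Arabidopsis the gene of that name is also known as a repressor of *WUSCHEL* in the shoot meristem, a role not assigned to the rice gene by the table. *BARD1* had 25, 13 and 12 counts (WT) against 1, 8 and 2 (*Dap1*). The groups did not overlap, but *Dap1* replicate 2 approached the WT libraries and WT replicate 1 stood above the others. The log2 fold change of -2.17 (SE 0.561) had the largest standard error of the 31 genes, and it was -3.38 without *Dap1* replicate 2.

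**Figure D3:**
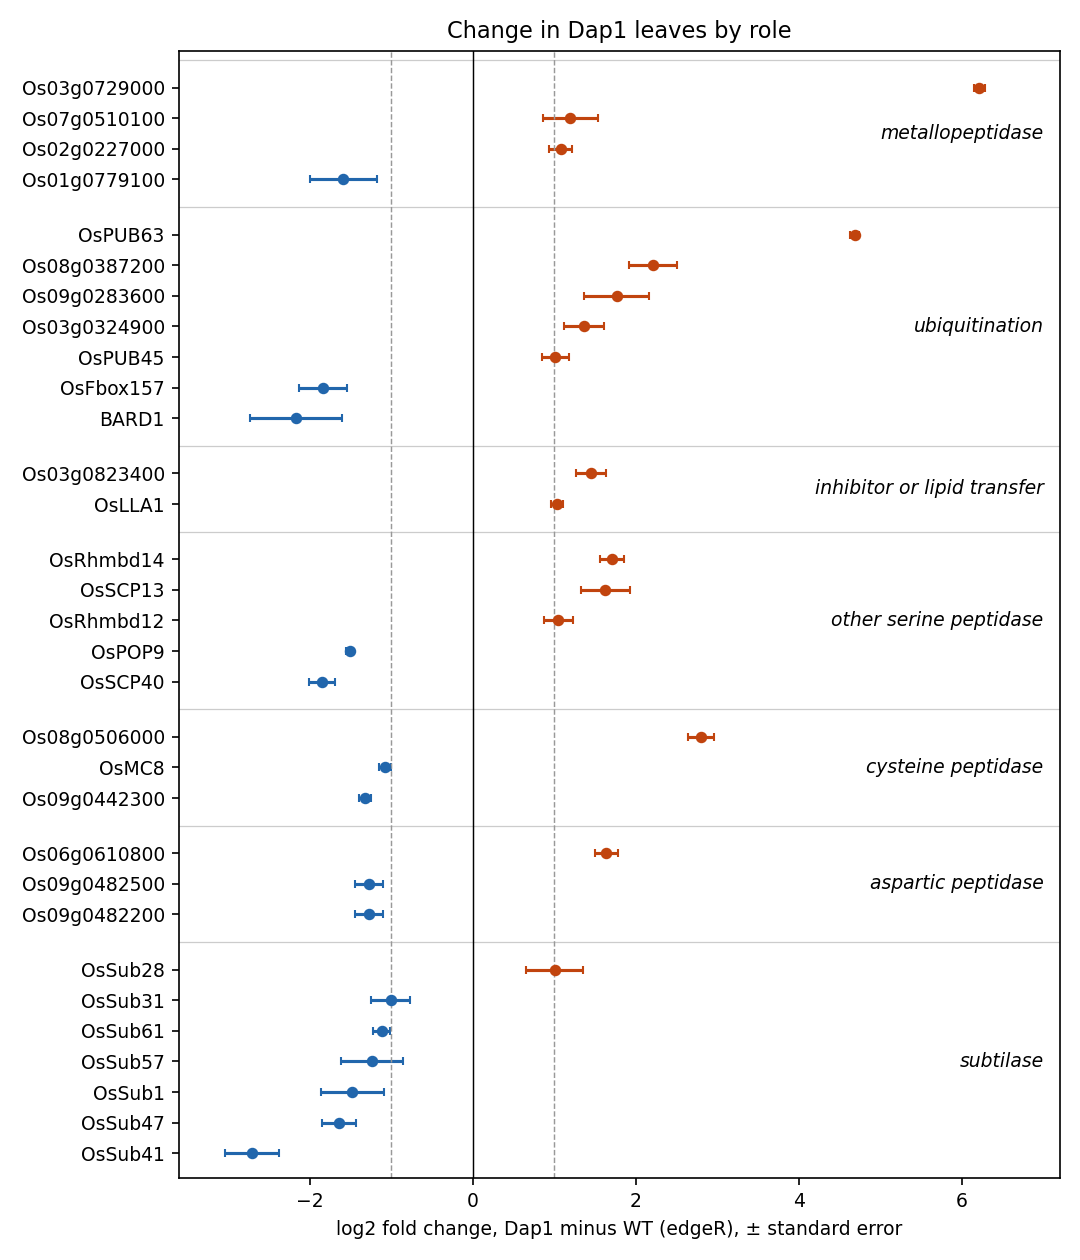
Log2 fold change (*Dap1* minus WT, edgeR, all 6 libraries) of each gene, grouped by role, with bars of ± 1 standard error and dashed lines at -1 and 1. Subtilases lie to the left with 1 exception (*OsSub28*, 1.00), and ubiquitination genes lie to the right with 2 exceptions (*OsFbox157* and *BARD1*).

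Subtilases were the largest peptidase family among the 31 genes, with 7 genes. Of these, 6 were lower in *Dap1*, as were 42.5% of all listed genes. Subtilases that were not listed are not seen here, and the split was not tested. Subtilases are serine peptidases of the subtilisin type, and in plants most are secreted to the cell wall space. The summed FPKM of the 7 genes was 13.6 ± 0.621 (SD, n = 3) in WT and 6.07 ± 0.660 in *Dap1*. *OsSub61* (*Os10g0524600*) made up most of it, with 443, 334 and 368 counts (WT) against 199, 173 and 164 (*Dap1*) (log2 fold change -1.12, SE 0.105). *OsSub41* (*Os04g0430700*) had the lowest log2 fold change of the 31 genes, at -2.71 (SE 0.334), from 41, 43 and 45 counts to 6, 7 and 7. Its groups were well separated, and with a library left out the value stayed between -2.82 and -2.61. *OsSub47* (*Os05g0435800*) had 92, 83 and 94 counts (WT) against 26, 29 and 33 (*Dap1*), a log2 fold change of -1.64 (SE 0.206).

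The other 4 subtilases had low counts and wider errors. *OsSub1* (*Os01g0278950*) had 30, 17 and 25 counts (WT) against 5, 13 and 8 (*Dap1*) (log2 fold change -1.48, SE 0.388). The table gives the symbol *OsSub1* also to *Os01g0279000*, described as a DHHC-type zinc finger protein, which was lower too (log2 fold change -2.91, SE 0.684), so the symbol alone does not identify the gene. *OsSub57* (*Os09g0441000*) had 51, 17 and 22 counts (WT) against 13, 8 and 17 (*Dap1*). WT replicate 1 was high, and the log2 fold change of -1.24 (SE 0.380) was -0.73 without it and -0.99 without *Dap1* replicate 2. *OsSub31* (*Os03g0761500*) had 75, 51 and 58 counts (WT) against 29, 40 and 24 (*Dap1*), and its log2 fold change of -1.01 (SE 0.239) was -0.83 without *Dap1* replicate 3 and -0.93 without WT replicate 1. *OsSub28* (*Os03g0242900*) was the only higher subtilase, with 17, 13 and 11 counts (WT) against 29, 37 and 18 (*Dap1*). Its scaled counts nearly touched, at 15.4 in the highest WT library and 17.1 in the lowest *Dap1* library. The log2 fold change of *OsSub28* was 1.00 (SE 0.348), and it was 0.77 without *Dap1* replicate 2, 0.86 without WT replicate 3 and 0.93 without *Dap1* replicate 1.

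Among the other serine peptidases 3 were higher and 2 lower. Of all listed genes 57.5% were higher and 42.5% lower, and the split was not tested. *OsPOP9* (*Os04g0561500*) is described as a prolyl endopeptidase, which cuts short peptides after proline, and is annotated to the cytosol. It had 2506, 1898 and 2391 counts (WT) against 765, 790 and 877 (*Dap1*). FPKM was 43.0 ± 1.86 (SD, n = 3) in WT, the highest of the 31 genes there, and 14.9 ± 0.657 in *Dap1*. The log2 fold change of -1.51 had the smallest standard error of the 31 genes, 0.0450. The genes described as serine carboxypeptidases, enzymes that take residues from the end of a protein, had opposite signs. *OsSCP40* (*Os07g0656900*) had 179, 149 and 188 counts (WT) against 50, 46 and 50 (*Dap1*) (log2 fold change -1.85, SE 0.159). *OsSCP13* (*Os03g0386800*) had 12, 10 and 14 counts (WT) against 40, 35 and 39 (*Dap1*) (log2 fold change 1.62, SE 0.303). By FPKM *OsSCP40* was the more highly expressed in both groups, at 6.97 ± 0.506 against 0.367 ± 0.0473 in WT and 1.93 ± 0.163 against 1.14 ± 0.127 in *Dap1* (SD, n = 3).

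Both rhomboid genes, which encode serine peptidases that cut inside membranes, were higher, as were 57.5% of all listed genes. *OsRhmbd14* (*Os08g0546700*, chromosome 8) had 61, 58 and 67 counts (WT) against 203, 206 and 212 (*Dap1*), with no overlap and a CV of 3.75% within *Dap1*. Its log2 fold change was 1.70 (SE 0.144). By identifier it lies between the listed genes *Os08g0546600*, a non-protein coding transcript (log2 fold change 1.97, SE 0.590), and *HSFB2B* (*Os08g0546800*), a heat stress transcription factor gene (log2 fold change 4.89, SE 0.123). The strand setting of the counting is not given in the sources used here, and whether reads of these neighbours were counted on *OsRhmbd14* was not tested. *OsRhmbd12* (*Os05g0220600*) had 64, 42 and 52 counts (WT) against 113, 102 and 118 (*Dap1*). Its log2 fold change of 1.05 (SE 0.177) was 0.99 without *Dap1* replicate 1 and 0.9998 without WT replicate 2.

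Of the 3 cysteine peptidases the well expressed pair was lower. *Os09g0442300* is described as similar to oryzain gamma chain, a papain-like cysteine peptidase first known from rice seeds. It had 835, 645 and 756 counts (WT) against 292, 275 and 346 (*Dap1*). FPKM was 27.1 ± 0.101 (SD, n = 3) in WT and 10.8 ± 1.12 in *Dap1*, a log2 fold change of -1.32 (SE 0.0744). *OsMC8* (*Os03g0389100*) is a metacaspase, a peptidase related to animal caspases that cuts after arginine or lysine. It had 738, 562 and 621 counts (WT) against 282, 294 and 353 (*Dap1*), an FPKM of 25.7 ± 1.02 and 12.1 ± 1.03, and a log2 fold change of -1.08 (SE 0.0760). *Os08g0506000* contains an otubain (OTU) domain and is annotated as a ubiquitin-specific peptidase. OTU enzymes take ubiquitin off proteins, so this gene belongs to ubiquitin removal although its process term is proteolysis. It had 40, 25 and 48 counts (WT) against 253, 269 and 281 (*Dap1*), and the *Dap1* libraries lay within a CV of 1.20%. Its log2 fold change of 2.80 (SE 0.156) was the third largest of the 31 genes.

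The 3 aspartic peptidases of the A1 (pepsin-like) family comprised 1 higher and 2 lower genes, and 42.5% of all listed genes were lower. *Os09g0482200* and *Os09g0482500*, both on chromosome 9, had the same counts in every library. Each had 141, 107 and 120 in WT and 54, 53 and 48 in *Dap1*, and their FPKM were the same as well, at 4.11 ± 0.126 and 1.71 ± 0.200 (SD, n = 3). Their log2 fold change was -1.27 (SE 0.171). The deposited values cannot tell the genes of this pair apart, so they stand for 1 measurement. Counted once, the 31 genes hold 30 distinct profiles, with 16 higher and 14 lower. *Os06g0610800* had 97, 72 and 109 counts (WT) against 278, 346 and 259 (*Dap1*), a log2 fold change of 1.64 (SE 0.137). Its ratio of count to FPKM, after division by library size, differed by 28.5% between the highest and the lowest library, against 0.244% in *Os03g0729000*. From FPKM, which takes in that ratio, its log2 ratio of group means was 1.56.

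The remaining pair carries the term proteolysis without being a typical peptidase. *Os03g0823400* is described as similar to a Bowman-Birk trypsin inhibitor, a small protein that blocks serine peptidases. It had 50, 32 and 55 counts (WT) against 136, 119 and 125 (*Dap1*) (log2 fold change 1.45, SE 0.185). *OsLLA1* (*Os03g0385400*) has the domain shared by lipid transfer proteins and peptidase inhibitors and is annotated to the vacuole and to membranes. It had 437, 300 and 419 counts (WT) against 812, 774 and 813 (*Dap1*), with an FPKM of 24.0 ± 2.15 and 49.1 ± 3.42 (SD, n = 3). Its log2 fold change of 1.03 (SE 0.0730) was 0.96 without WT replicate 2 and 0.97 without *Dap1* replicate 1.

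Features other than the process terms were sparse. A GO component was given for 16 of the 31 genes. The 5 genes with the component term membrane (*Os03g0729000*, *OsLLA1*, both rhomboid genes and *OsSub28*) were higher. The 4 annotated as integral to the membrane (*Os03g0729000*, both rhomboid genes and *Os08g0387200*) were also higher, and the lower gene *BARD1* is annotated to the plasma membrane. *Os03g0729000* and both rhomboid genes are in both sets, so the sets are not separate. Of all listed genes 57.5% were higher. The counts of membrane genes are small, and their directions were not tested. A KEGG pathway was given for 1 gene, *BARD1* (homologous recombination). The choice of genes had used KEGG as well, leaving out 3 genes of the endoplasmic reticulum pathway. By identifier 9 genes lie on chromosome 3, or 29.0% of the 31 against 14.2% of the listed genes with a chromosome in their identifier. On chromosome 9 lie 5 genes, or 16.1% against 4.81%, and these include both genes of the pair with identical counts. Levels are a description only, since the floor of 3 counts acts on them. The median FPKM in WT was 1.85 for the higher and 1.91 for the lower genes, and the mean FPKM was under 1 in both groups for 6 of the 31 genes. The median CV between replicates was 13.1% in WT and 11.0% in *Dap1*.

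**Figure D4:**
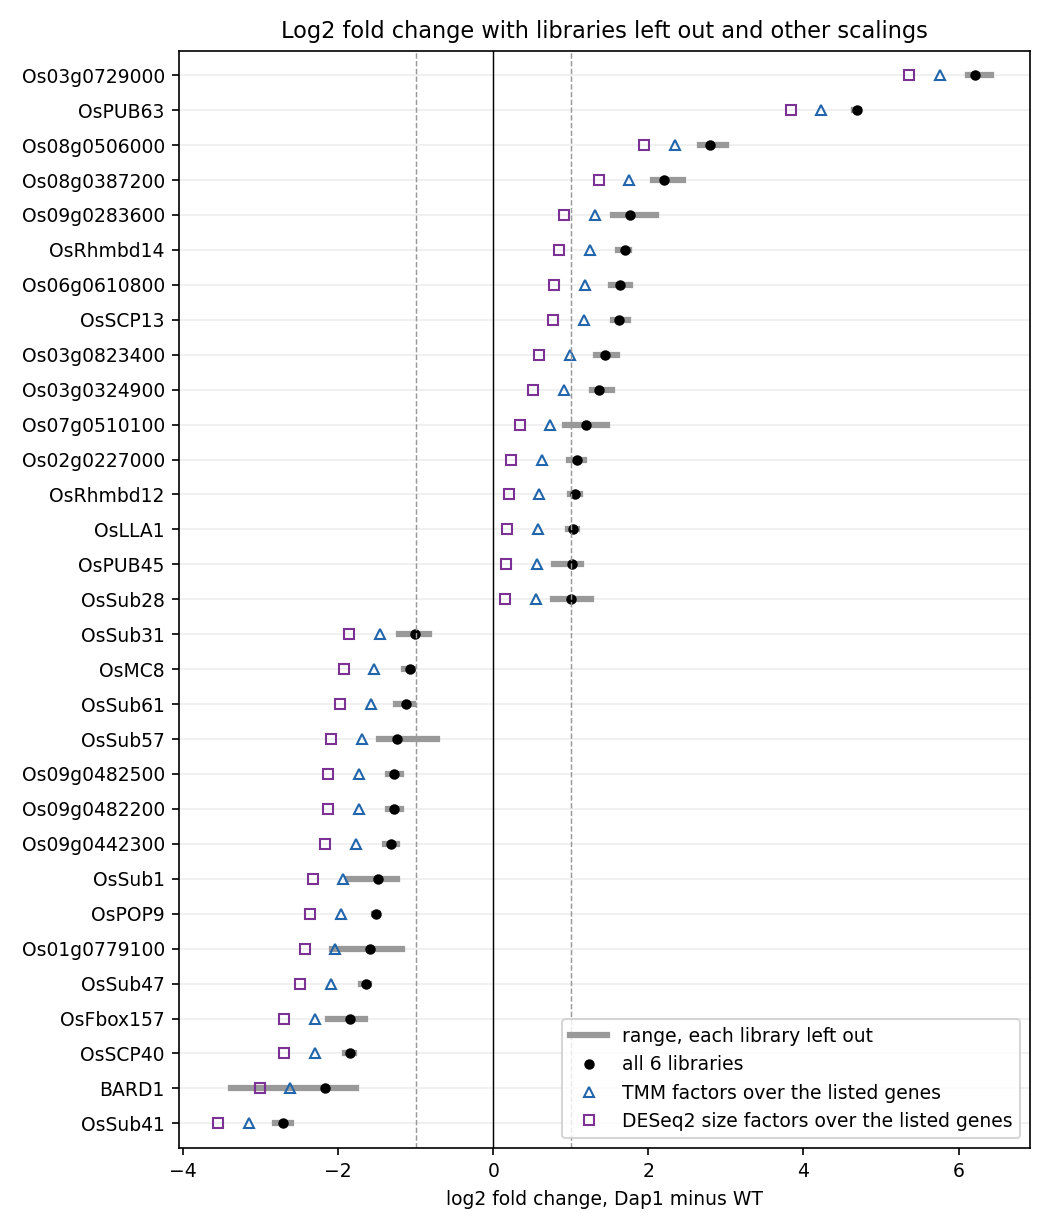
Log2 fold change of each gene with all 6 libraries (black), its range with each library left out (grey bar), and its value with TMM factors (triangles) and DESeq2 size factors (squares) computed over the listed genes, with dashed lines at -1 and 1. Both scalings shift all genes to the left by similar amounts and leave every gene on its side of 0, and the widest grey bars are those of *BARD1*, *Os01g0779100* and *OsSub57*.

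The thresholds behind the choice of genes lie close to some of them. By the highest library of a group, nearest the floor of 3 counts on the inside were *OsSub41* in *Dap1* (6, 7 and 7 counts), *BARD1* in *Dap1* (1, 8 and 2), *Os09g0283600* in WT (7, 10 and 6) and *OsSub1* in *Dap1* (5, 13 and 8). Nearest on the outside were *OsSAG12* in *Dap1* (0, 1 and 0 counts) and *Os06g0229066* in WT (1, 0 and 0). Nearest a log2 fold change of 1 in size were *OsSub28* (1.00) and *OsSub31* (-1.01). Just outside it was *Os12g0278900* (0.99), a papain family gene without a proteolysis term.

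Among the 10 genes that had been set aside 8 were higher and 2 lower in *Dap1*, against 57.5% and 42.5% of all listed genes. A pair described as similar to FtsH, the zinc peptidase that clears damaged photosystem proteins in the chloroplast, was nearly silent in WT. *OsFtsH6* (*Os06g0229000*) had 0 counts in each WT library and 77, 101 and 96 in *Dap1*, and *Os06g0229066* had 1, 0 and 0 and 255, 234 and 244. Against a floor of 3 counts per library *OsFtsH6* was at least 29.4-fold higher. Whether reads were split between them was not tested. *OsSAG12* (*Os04g0208200*), a cysteine peptidase gene whose Arabidopsis namesake is a marker of leaf senescence, had 19, 18 and 16 counts (WT) against 0, 1 and 0 (*Dap1*). *OsUBC17* (*Os06g0506600*), a ubiquitin carrier protein gene, had 165, 109 and 117 counts (WT) against 512, 587 and 611 (*Dap1*) (log2 fold change 2.10, SE 0.0956). The cullin gene *OsCUL1-3* had 4, 0 and 6 counts (WT) against 12, 7 and 25 (*Dap1*).

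A further 12 listed genes had no such process term but a related function, pathway or description. Of these 12 genes 6 were higher and 6 lower, against 57.5% and 42.5% of all listed genes. *OsFbox172*, with its 0, 0 and 2 counts in WT, had the largest fitted difference of these. *Os01g0757500*, a CS domain gene annotated to bind ubiquitin ligases, had 77, 76 and 78 counts (WT) against 664, 717 and 736 (*Dap1*) (log2 fold change 3.16, SE 0.0955). The protease inhibitor gene *IAI2* (*Os01g0132000*) had 13, 3 and 10 counts (WT) against 54, 77 and 70 (*Dap1*) (log2 fold change 2.91, SE 0.314). With *Os03g0823400* it made 2 listed genes annotated as serine peptidase inhibitors, both higher. Another gene described by an inhibitor domain went the other way. *Os03g0250400*, with a lipid transfer and trypsin-alpha amylase inhibitor domain, had 46, 33 and 51 counts (WT) against 14, 18 and 12 (*Dap1*) (log2 fold change -1.58, SE 0.288). Among the lower genes, *Os03g0752500*, described as similar to a cysteine proteinase, had 299, 277 and 250 counts (WT) against 128, 133 and 112 (*Dap1*) (log2 fold change -1.18, SE 0.126).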

How the data were processed

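RNA was sequenced from leaves of *Dap1* and WT (ZH11), 3 libraries each. Per the study's methods and the submitters' processing notes, Fastp was used for read filtering, Bowtie 2 for rRNA removal, HISAT 2 for alignment to Nipponbare, StringTie for transcript assembly and RSEM for quantification, and the authors thereby made the deposited whole-number counts and the FPKM values. Versions, annotation release and strand setting are not given in the sources used here. The deposited table holds the genes the authors called with edgeR, and their log2 fold change, p-value, FDR and mean FPKM columns were used for nothing.

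Counts of the 925 listed genes were fitted with edgeR 4.0.16 (glmQLFit) in R 4.3.3. Totals of selected genes are no depth, so library sizes were the median ratio of count to FPKM over 258 genes with FPKM of at least 2 in every library. Standard errors were derived from the quasi-likelihood F statistic (fold change on the log2 scale over root F). No p-value is given, because the genes had been chosen on this contrast. The fit was tested on simulated counts with a fixed spread between replicates, known library sizes and changes in only part of the genes. The listed genes had all been selected as different, so that test does not cover the fold changes and errors given here. Whether a replicate was 1 plant or a pool is not given in the sources used here. Errors over counts cover counting and the spread of these libraries only. The genes, groups and lists were chosen with earlier results of these data known. Each of the 31 genes is named with its fold change and its count in each library. Other genes named are *OsWUS*, some with related annotation and some neighbours by identifier. Alternatives were TMM, DESeq2 1.42.0 size factors and fold changes, limma 3.58.1 on log2(FPKM + 1) and log2(FPKM + 0.1), the log2 ratio of mean FPKM, a filter at 10 mean counts, a floor of 10 counts in place of 3, a replicate block and each library left out. No identifier matched the reference gene table, so no sequence or coordinate is given, and chromosomes were read from the identifiers.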

Additional observations from a re-analysis of the deposited data

How the results depend on the processing

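All 31 genes kept their sign under every alternative run. Because the groups did not overlap in counts or FPKM, leaving a library out or working from FPKM could not reverse a sign. The median log2 fold changes given here are in each setting the smallest rise among the 16 higher genes, not a typical change. With TMM factors 8 genes were over 1 and the median log2 fold change was 0.55. With DESeq2 size factors 4 were over 1 and the median was 0.15, against 16 and 1.00 with library sizes from FPKM. Both scalings, computed over genes selected as different, shift all genes together (medians of -0.45 and -0.85) and left 15 genes under -1; over all listed genes they left 342 and 265 over 1, and 393 under -1 with each, against 526 and 386. On log2(FPKM + 1), where the pseudocount shrinks low genes, 7 were over 1, 4 under -1 and the median was 0.27; over all listed genes 276 were over 1 and 118 under -1. With each library left out, 12 to 16 genes were over 1, 13 to 15 under -1 and the median was 0.77 to 1.04. Same-numbered libraries did not deviate together (correlations of -0.00665, -0.0160 and -0.0285 over 431 genes), and with the replicate block 14 genes were over 1, 15 under -1 and the median was 0.98. A floor of 10 counts left 28 genes, without *OsSub41*, *Os09g0283600* and *BARD1*. Counting the identical aspartic peptidase pair once, an alternative chosen after seeing the data, left 14 lower genes. The promoter and protein alternatives were not run because no sequence was matched. The standard error was largest for *BARD1*, *Os01g0779100*, *Os09g0283600*, *OsSub1* and *OsSub57*.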
